A study of Mus musculus with 8 samples.

Results

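Divergent gene pairs are neighbours whose start sites lie back to back on opposite strands, so that transcription leaves the space between them in both directions. The pairs were chosen by their position and level in the deposited table of FPKM, the fragments per kilobase of gene, scaled to library size. A pair was kept if both genes were listed as protein-coding RefSeq genes with 1 copy, if the plus-strand gene began 0 to 1000 bases above the end of the minus-strand gene, and if each gene averaged 0.5 FPKM or more across all 8 libraries. This gave 362 pairs with 722 genes, since Ubr7 and Rad17 each belonged to 2 pairs. They were 362 of the 759 divergent pairs found at any level, of which 282 had 1 partner below 0.5 FPKM and 115 had both below it. The 722 genes were 9.24% of the 7816 single-copy protein-coding genes at or above that level. Because the mean level chose the members, their levels are given below as a description. Without the time of their highest mean, 69 of the 722 members would average under 0.5 FPKM (58 of them highest at 0 min, 1 at 20, 8 at 60 and 2 at 180 min). Such genes had to differ between times to be chosen, and they made up 2 of the calls higher and 15 of those lower at 60 min, and 3 and 37 at 180 min. Among those with changes given below, Acot13, Bcl2l12, Bcs1l, Ddx31, Gin1, Lrsam1, Mcee, Nudt6, Pnkd, Sgsh, Slc26a11, Ssmem1 and Xpc were highest at 0 min. Bend6 and Dst were highest at 60 min and 2010002M12Rik at 180 min.

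The libraries are GRO-seq, in which nuclei are isolated, polymerases already engaged on DNA extend their RNA in the presence of bromouridine triphosphate, and the labelled nascent RNA is captured with an antibody and sequenced. The cells were bone marrow-derived macrophages from male C57BL/6 mice of 8 weeks, held in serum-free medium. Cells without treatment (0 min) were compared with cells given LPS, a bacterial cell wall component, at 100 ng/ml for 20, 60 or 180 min. Each time had 2 replicates, numbered 1 and 2 in the labels. All 8 macrophage markers looked up (Csf1r, Emr1, Cd68, Itgam, Lyz2, Fcgr1, Mertk and Spi1) were at 0.5 FPKM or more. Their summed level was 51.6 to 159 FPKM over the libraries. Of 4 neutrophil genes in the table, S100a8 and S100a9 reached 0.5 FPKM, with a sum of 2.08 to 9.15 over the list, and no marker of T and NK, B, mast, erythroid, stromal or dendritic cells did. The part of other cell types in the results was not tested. Depth recovered from the FPKM steps was 44.4 to 61.2 M reads in replicate 1 and 7.96 to 11.1 M in replicate 2. A member gene held a median of 628 to 1372 reads in the replicate 1 libraries and 66 to 168 in those of replicate 2. In bulk values such as these, fewer cells transcribing a gene and less transcription per cell cannot be told apart.

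Divergent promoters of coding genes are common in mammals, and many of them serve genes needed in every cell, such as those for mitochondria, RNA processing and DNA repair. They often lie in CpG islands, lack a TATA box and hold sites for ETS and NRF1 factors and the CCAAT-binding factor NF-Y. LPS acts through Toll-like receptor 4 to activate NF-kB and AP-1 within minutes, and through secreted interferon it later activates genes with an interferon-stimulated response element (ISRE). The comparison here is how far partners that share a start region changed together after LPS.

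The intervals between the 2 start sites of 9 pairs that the results below turn on are printed here, so that what lies between partners that rose together, fell together or went separate ways can be read directly. They come from RefSeq promoters on GRCm38.p6, while the deposited coordinates are on mm9, and they run 5′ to 3′ on the plus strand from the base after the minus-strand start to the base before the plus-strand start. Capitals mark matches, on either strand, to 10 motifs. These are TATAAA for the TATA box, CCAAT for the factor NF-Y, GGGCGG for the GC box, CCGGAAG for ETS factors, GCATGCGC for NRF1 and TGANTCA for AP-1. The others are TGACGTCA for the CRE (cyclic AMP response element), GGGNNNTTC for the kB site, GAAANNGAA for the ISRE and TTCNNNGAA for STAT factors.
Pairs whose partners both rose at 180 min were these, the first with 3 ISRE matches, and Ppp1r15a/Plekha4 and Dcun1d3/Lyrm1 with a CRE match each.
2010002M12Rik/Ifit1, chr19:34640744-34640888: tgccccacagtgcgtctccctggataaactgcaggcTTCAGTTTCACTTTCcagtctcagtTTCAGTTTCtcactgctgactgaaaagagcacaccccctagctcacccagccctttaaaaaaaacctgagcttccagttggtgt
Psmb9/Tap1, chr17:34187331-34187555: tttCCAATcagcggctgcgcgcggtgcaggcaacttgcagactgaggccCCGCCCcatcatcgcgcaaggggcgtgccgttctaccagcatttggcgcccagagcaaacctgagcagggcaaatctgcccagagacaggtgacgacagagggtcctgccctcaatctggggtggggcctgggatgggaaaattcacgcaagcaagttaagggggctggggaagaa
Ppp1r15a/Plekha4, chr7:45526269-45526329: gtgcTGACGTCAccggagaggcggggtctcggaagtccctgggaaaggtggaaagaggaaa
Dcun1d3/Lyrm1, chr7:119895746-119895860: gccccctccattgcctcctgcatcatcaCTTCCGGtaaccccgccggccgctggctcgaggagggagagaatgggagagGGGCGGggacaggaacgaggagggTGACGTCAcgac
Pairs whose partners changed by different amounts were these, and the Nfkbib/Sirt2 interval held no match.
Nfkbib/Sirt2, chr7:28766645-28766751: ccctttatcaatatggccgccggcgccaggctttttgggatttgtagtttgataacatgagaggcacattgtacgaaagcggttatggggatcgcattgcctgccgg
Vmp1/Ptrh2, chr11:86683837-86684073: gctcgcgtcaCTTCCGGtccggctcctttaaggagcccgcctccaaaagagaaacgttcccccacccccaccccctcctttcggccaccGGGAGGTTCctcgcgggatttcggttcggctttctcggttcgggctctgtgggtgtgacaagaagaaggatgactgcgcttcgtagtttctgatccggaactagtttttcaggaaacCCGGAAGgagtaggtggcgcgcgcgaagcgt
Setdb2/Cab39l, chr14:59440881-59440962: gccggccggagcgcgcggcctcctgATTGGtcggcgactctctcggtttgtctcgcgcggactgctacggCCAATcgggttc
Rnf166/Ctu2, chr8:122476075-122476142: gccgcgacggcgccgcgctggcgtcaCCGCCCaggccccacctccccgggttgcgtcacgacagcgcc
A histone pair whose partners both fell had a TATA box match and 4 CCAAT matches.
Hist1h2an/Hist1h2bp, chr13:21787249-21787487: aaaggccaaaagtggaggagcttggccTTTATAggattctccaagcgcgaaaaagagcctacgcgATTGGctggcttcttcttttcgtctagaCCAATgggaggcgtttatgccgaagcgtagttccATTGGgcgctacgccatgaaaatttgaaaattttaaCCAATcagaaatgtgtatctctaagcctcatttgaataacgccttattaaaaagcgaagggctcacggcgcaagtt
A match is a description of these letters and not evidence of a bound factor. The deposited distance is the difference between the 2 start coordinates, and for the first 4 pairs it equals the printed interval plus 1 base. For the other 5 the start sites of the 2 sources differ, as in Nfkbib/Sirt2 with a deposited distance of 228 bases and an interval of 107, and Vmp1/Ptrh2 with 161 and 237.

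The start sites were close. The deposited distance ran from 1 to 961 bases with a median of 165.5, the middle 50% of pairs lay between 80 and 309.5 bases, and 267 pairs (73.8%) were within 300 bases. The nearest were Capza1/St7l at 1 base and 2810004N23Rik/Gnpat at 4 bases, and the farthest were Mrpl41/Pnpla7 at 935 and Dnase1l1/Taz at 961. Just outside the rule lay Bet1l/Ric8 at 1014 and Btf3l4/Txndc12 at 1094 bases. At the level limit, the lower partner's mean was 0.5 FPKM in Mtrr/Fastkd3 and 0.502 in Tbccd1/Dnajb11 inside the rule, and 0.496 in Eif3k/Map4k1 outside it. The pairs lay on 20 chromosomes. Member genes were shorter than the genes fitted as a whole, with a median of 12118 against 16248 bases, and their median level was 1.32 against 1.43 FPKM. Of the members, 112 overlapped another listed gene, 12 of them on the same strand, and because the strand setting of the counting is not given in the sources used here, their values are uncertain.

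**Figure D1:**
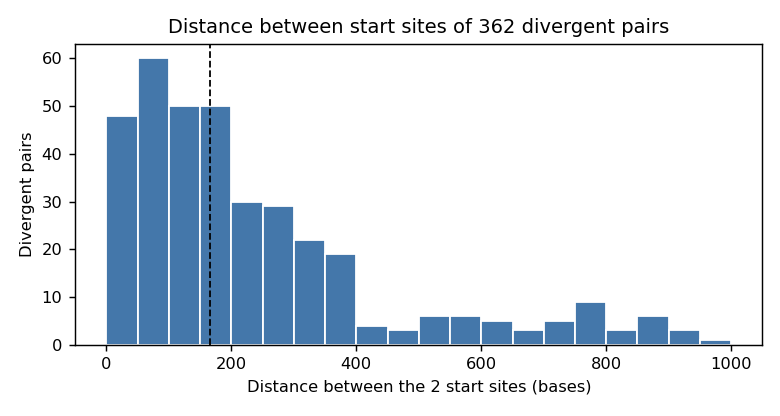
Number of divergent pairs (vertical axis) by distance between the 2 start sites in bases (horizontal axis, bins of 50 bases), with the median of 165.5 as a dashed line. Of 362 pairs, 267 lay within 300 bases.

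Partners did not start from equal levels. At 0 min the median absolute log2 ratio between partners was 0.70, and in 127 pairs (35.1%) the means differed by more than 2-fold. By 60 and 180 min the median ratio was 0.97 at both times, and the means of 177 and 179 pairs differed by more than 2-fold. The plus-strand partner was the higher in 182 of 362 pairs at 0 min and in 176 at 180 min. The highest pair by geometric mean was Hist1h2ae/Hist1h2bg, an H2A and an H2B histone gene, followed by Prdx5/Trmt112 and Cln3/Apobr, which pairs a lysosomal membrane protein with a lipoprotein receptor. Per-length levels at 0 min ran to 46.1 and 20.2 FPKM for Hist1h2bg in replicates 1 and 2. Histone genes have near-identical copies, so their values are uncertain.

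At 20 min no member gene passed the test in the fit without a replicate term, which is limma's moderated test on log2(FPKM + 0.1) with Benjamini-Hochberg adjustment at 0.05 over all 8343 genes fitted. Of all genes fitted, 0.108% were called higher and 0% lower, and at an unadjusted p under 0.05 there were 5 members higher and 35 lower. Limma-voom on recovered reads also called 0. With the replicate number as a block, 6 members were called higher and 7 lower, beside 2.3% and 0.683% of all genes. The 6 were Anxa5, Bend6, Nfkbib, Ppp1r15a, Sowahc and Vmp1, named here because they are all the calls of that direction. None of their partners was called at 20 min. The 7 called lower were Bcs1l, Oxld1, Ssmem1, Ssna1, Timm10b, Timm8b and Wdr83os, among which Bcs1l, Timm10b and Timm8b serve mitochondrial protein assembly or import.

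At 60 min 10 members were called higher and 44 lower. This was 1.39% and 6.09% of members, beside 5.07% and 8.8% of all genes fitted. At 180 min 28 were called higher and 156 lower, or 3.88% and 21.6% of members, beside 8.93% and 23.4% of all genes. With the block the calls were 30 higher and 191 lower at 60 min (11.7% and 27.9% of all genes) and 50 higher and 412 lower at 180 min (14.2% and 51.6% of all genes). With both the block and median-ratio scaling they were 99 higher and 132 lower at 60 min (19.5% and 20.3% of all genes). At 180 min they were then 129 and 178 (26.1% and 25.8% of all genes). The share of members called higher was below that of all genes at both times in both fits on the deposited scale. The median log2 change of members was -0.33 at 60 min and -0.79 at 180 min, against -0.29 and -0.69 over all genes. Scaling each library to the median ratio moved these medians to -0.02 and -0.11, and those over all genes to 0.01 and -0.01. It gave 11 higher and 29 lower at 60 min and 47 higher and 74 lower at 180 min, so the split of calls rests on the scaling. For that scaling without the block, no share over all genes is given here. Of 2670 genes of divergent neighbours more than 10000 bases apart, that scaling called 224 higher and 180 lower at 60 min. At 180 min it called 402 and 354 of them. The 54 calls at 60 min came to 4 without 0 min replicate 1, 10 without 0 min replicate 2, 9 without 60 min replicate 2, and 26 and 30 without either 20 min library, and only Acot13, Prdx5 and Psme2 were called whichever library was left out. The 184 calls at 180 min came to 63, 61 and 65 without 0 min replicate 1, 0 min replicate 2 or 180 min replicate 2, and 40 genes held in every such fit. Calls described below as holding are those that did. Acot13 averaged 0.471 FPKM without the 0 min libraries, so it met the level of the rule only through them.

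Partners were called together in few pairs. At 60 min 1 pair had both partners higher and 6 had both lower, which is 0.276% and 1.66% of the 362 pairs. Among all 7509 neighbouring pairs of fitted genes, 0.892% had both higher and 1.31% both lower. At 180 min 5 pairs (1.38%) had both higher and 29 (8.01%) both lower, against 2.16% and 7.15% of all neighbours. Opposite calls were found in 0 pairs at 60 min and 1 pair at 180 min, against 0.666% and 2.82% of neighbours. With the block, 3 pairs had both higher and 42 both lower at 60 min (3.08% and 9.67% of neighbours), and 12 and 140 at 180 min (4.25% and 29.8%). With median-ratio scaling and no block there were 0 and 5 at 60 min, and 9 and 9 at 180 min, so the count of joint falls rests on the scaling. For that scaling no share over all neighbours is given here. The 9 and 9 were 2.49% and 2.49% of the 362 pairs. Divergent neighbours more than 10000 bases apart then had 3.82% and 3.37% at 180 min. Neighbours up to 1000 bases apart had 4.33% and 7.36% where they run in the same direction, and 1.13% and 3.39% where they end toward each other. On the deposited scale without the block, the 8.01% at 180 min was near the share of all neighbours. It was 9.52% in neighbours up to 1000 bases apart that run in the same direction, and 5.09% in those that end toward each other. In divergent neighbours more than 1000 and up to 10000 bases apart it was 10.7%. Opposite calls with the block numbered 1 at 60 min and 7 at 180 min (4.22% and 9.68% of neighbours). With median-ratio scaling and no block they numbered 0 and 1. The test of the difference between partners, made on the log2 ratio of the partners in each library, called 0 pairs at 20 min, 28 at 60 min and 47 at 180 min. Leaving out 1 library gave 1 to 23 at 60 min, with 1 without either 0 min library, and 12 to 47 at 180 min, with 12 without 0 min replicate 2 or 180 min replicate 2. The calls were 0%, 7.73% and 13% of the pairs, and among all neighbours 0.0133%, 18.4% and 30.2% were called. At 20 min 13 of the 362 pairs had an unadjusted p under 0.05, beside 100 of 1335 divergent neighbours more than 10000 bases apart. No share over all neighbours at that threshold is given here. With the block 4, 99 and 139 of the 362 pairs had a called difference, beside 3.77%, 45% and 55.1% of neighbours.

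**Figure D2:**
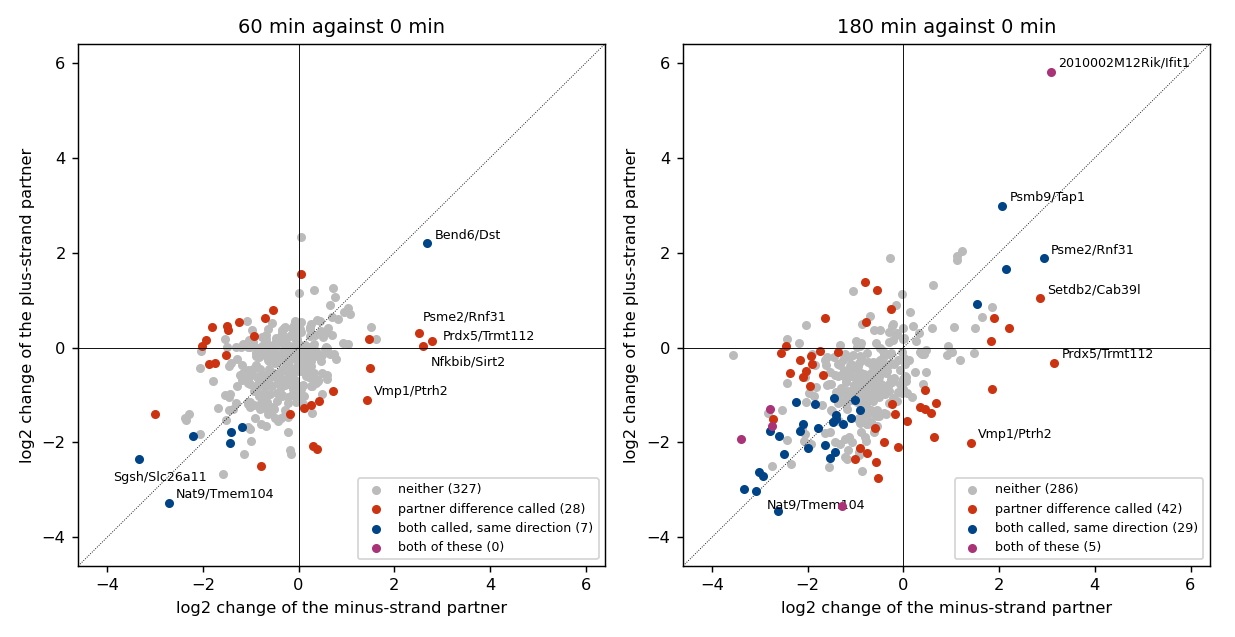
Log2 change of the minus-strand partner (horizontal) and the plus-strand partner (vertical) in 362 pairs, at 60 min (left) and 180 min (right) against 0 min; colours give the calls and the dotted line equal change. At 180 min 34 pairs had both partners called in the same direction, 47 had a called difference, and 5 had both.

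The largest joint rise was that of 2010002M12Rik and Ifit1, 146 bases apart on chromosome 19, at 180 min. Ifit1, an interferon-induced antiviral protein, lies at chr19:34715379-34724499 on mm9. Its FPKM in replicates 1 and 2 was 1.10 and 1.71 at 0 min, 0.866 and 1.30 at 20 min, 2.18 and 4.52 at 60 min, and 62.4 and 110.3 at 180 min. The neighbouring 2010002M12Rik had 0.200 and 0.189 at 0 min, 0.122 and 0.157 at 20 min, 0.298 and 0.121 at 60 min, and 2.59 and 2.24 at 180 min. Both 180 min libraries stood above all 6 earlier libraries for both genes. At 180 min the log2 change was 5.82 ± 0.49 (SE, adjusted p = 0.000699) for Ifit1 and 3.09 ± 0.37 (adjusted p = 0.00179) for its partner, and both calls held whichever library was left out. The difference of 2.73 ± 0.68 between them was also called (adjusted p = 0.0212). 2010002M12Rik averaged 0.181 FPKM without the 180 min libraries, so it met the level of the rule only through them. This is the interval with 3 ISRE matches.

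Genes of antigen processing rose in 2 pairs at 180 min. Psmb9, a catalytic subunit of the immunoproteasome, and Tap1, a subunit of the peptide transporter that loads MHC class I molecules, lie 226 bases apart on chromosome 17. Psmb9 had 2.57 and 2.90 FPKM at 0 min, 0.834 and 1.88 at 20 min, 2.50 and 1.03 at 60 min, and 11.0 and 12.6 at 180 min. Tap1 had 2.47 and 1.77 at 0 min, 1.52 and 1.56 at 20 min, 3.60 and 1.04 at 60 min, and 17.4 and 16.9 at 180 min. Both genes were high only in the 2 libraries of 180 min. The log2 change at 180 min was 2.07 ± 0.51 for Psmb9 (adjusted p = 0.0227) and 2.98 ± 0.54 for Tap1 (adjusted p = 0.00744), and their difference was not called (0.91 ± 0.45, adjusted p = 0.176, and 0.0201 with the block). Without 180 min replicate 2 the adjusted p rose to 0.118 for Psmb9 and 0.0509 for Tap1.

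Psme2, the beta subunit of the proteasome activator PA28, and Rnf31, the catalytic subunit of the linear ubiquitin ligase complex, lie 769 bases apart on chromosome 14. Psme2 had 2.35 and 1.98 FPKM at 0 min, 2.64 and 3.21 at 20 min, 12.1 and 13.7 at 60 min, and 16.9 and 17.3 at 180 min. Rnf31 had 2.13 and 1.94 at 0 min, 1.64 and 1.43 at 20 min, 3.42 and 1.86 at 60 min, and 7.02 and 8.53 at 180 min. Psme2 was thus already high at 60 min, when the Rnf31 libraries still overlapped those of 0 min. At 60 min the log2 change was 2.53 ± 0.29 for Psme2 (adjusted p = 0.00362) and 0.30 ± 0.35 for Rnf31 (adjusted p = 0.651), and the difference was called (-2.23 ± 0.42 for Rnf31 minus Psme2, adjusted p = 0.0132). At 180 min both were called (2.93 ± 0.29 and 1.88 ± 0.35, adjusted p = 0.00104 and 0.00859) and the difference was not (-1.05 ± 0.42, adjusted p = 0.102, and 0.0284 with the block).

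The other 2 pairs with both partners higher at 180 min were Ppp1r15a/Plekha4 and Dcun1d3/Lyrm1, both with a CRE match in the interval. These pairs, 2010002M12Rik/Ifit1 and Psme2/Rnf31 were named after their values were seen, to account for all 5. Ppp1r15a encodes GADD34, the subunit that directs a phosphatase to the translation factor eIF2 alpha. It had 10.3 and 3.52 FPKM at 0 min, 43.5 and 21.6 at 20 min, 23 and 15.2 at 60 min, and 29.3 and 25.1 at 180 min. Plekha4, a lipid-binding protein that starts 62 bases away, had 0.453 and 0.395, 0.836 and 0.678, 0.529 and 0.467, and 1.17 and 2.04 at the same times. Every LPS library of Ppp1r15a lay above its 0 min libraries, with the highest at 20 min, while Plekha4 was highest at 180 min. At 180 min the log2 changes were 2.15 ± 0.59 (adjusted p = 0.0324) and 1.65 ± 0.33 (adjusted p = 0.0108), and at 20 min, with the block, Ppp1r15a was called (2.32, adjusted p = 0.00412) and Plekha4 was not (0.71, adjusted p = 0.226). Dcun1d3, a regulator of cullin neddylation, rose at 180 min by 1.54 ± 0.28 (adjusted p = 0.00818), and Lyrm1, a LYR-motif protein, by 0.92 ± 0.29 (adjusted p = 0.0474). The 180 min calls of Ppp1r15a, Plekha4, Dcun1d3 and Lyrm1 did not hold whichever library was left out. Of the 5 joint rises, only 2010002M12Rik/Ifit1 held in both partners in every such fit.

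Bend6 and Dst were the 1 pair with both partners higher at 60 min. Bend6 is a BEN-domain transcriptional regulator and Dst encodes dystonin, a very long cytoskeletal linker gene of 400437 bases. Bend6 had 0.034 and 0.141 FPKM at 0 min, 0.288 and 0.650 at 20 min, 0.579 and 1.89 at 60 min, and 0.219 and 0.380 at 180 min. Dst had 0.072 and 0.198 at 0 min, 0.094 and 0.220 at 20 min, 0.616 and 1.40 at 60 min, and 0.591 and 0.982 at 180 min. Bend6 had already left its 0 min range at 20 min, whereas the 20 min libraries of Dst overlapped those of 0 min. Without the 60 min libraries the genes averaged 0.285 and 0.36 FPKM, so both met the level of the rule only through the time at which they are called higher. At 60 min the log2 changes were 2.69 ± 0.63 and 2.19 ± 0.52 (adjusted p = 0.0334 and 0.0353), which came to 0.17 and 0.194 without 0 min replicate 1 and to 0.0512 and 0.0583 with median-ratio scaling. With the block the difference of -1.45 at 20 min was called (adjusted p = 0.0175).

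Several partners rose alone. Prdx5, a peroxiredoxin that removes peroxides, lies at chr19:6981309-6984135 on mm9 and begins 53 bases from Trmt112, an activator of methyltransferases. Prdx5 had 3.46 and 2.08 FPKM at 0 min, 5.29 and 4.22 at 20 min, 17.5 and 21.3 at 60 min, and 26.2 and 23.3 at 180 min. Trmt112 had 17.8 and 5.91, 16.6 and 7.0, 20.1 and 6.29, and 13.7 and 4.82. Prdx5 thus rose in both replicates to pass its partner by 180 min, while every group of Trmt112 overlapped the 0 min libraries and replicate 1 was the higher throughout. Prdx5 changed by 2.80 ± 0.35 at 60 min (adjusted p = 0.00463) and 3.15 ± 0.35 at 180 min (adjusted p = 0.0015), calls that held whichever library was left out. The difference of Trmt112 minus Prdx5 was -2.67 ± 0.76 at 60 min (adjusted p = 0.0499) and -3.48 ± 0.76 at 180 min (adjusted p = 0.0133), and each was lost when a library was left out (up to 0.198 without 0 min replicate 1 and 0.096 without 180 min replicate 2).

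Nfkbib, which encodes the NF-kB inhibitor I-kappa-B beta, shares its start region with Sirt2, an NAD-dependent deacetylase, 228 bases away on chromosome 7. Nfkbib had 1.60 and 0.857 FPKM at 0 min, 8.85 and 4.29 at 20 min, 8.51 and 6.93 at 60 min, and 5.05 and 4.04 at 180 min. Sirt2 had 1.7 and 1.95 at 0 min, 1.85 and 1.53 at 20 min, 1.55 and 2.22 at 60 min, and 1.06 and 0.831 at 180 min. All 6 LPS libraries of Nfkbib lay above both of 0 min, and those of Sirt2 at 20 and 60 min overlapped them. Nfkbib changed by 2.61 ± 0.45 at 60 min and 1.86 ± 0.45 at 180 min (adjusted p = 0.0133 and 0.0224). The difference of Sirt2 minus Nfkbib was -2.40 ± 0.49 at 20 min, called with the block alone (adjusted p = 0.00566, against 0.142 without it), -2.58 ± 0.49 at 60 min (adjusted p = 0.0137) and -2.74 ± 0.49 at 180 min (adjusted p = 0.00683). The last held whichever library was left out, while the changes of Nfkbib did not (adjusted p = 0.0811 and 0.122 without 0 min replicate 2). Nfkbib and Sirt2 overlap the predicted genes Gm6537 and Gm19897 on the opposite strand over 713 and 6615 bases.

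The partners of Vmp1/Ptrh2, 161 bases apart on chromosome 11, were called in opposite directions at 180 min, the 1 such pair without the block. Vmp1 is a membrane protein of the endoplasmic reticulum that acts in autophagy, and Ptrh2 is a mitochondrial peptidyl-tRNA hydrolase. Vmp1 had 1.83 and 2.19 FPKM at 0 min, 4.53 and 4.61 at 20 min, 5.21 and 5.96 at 60 min, and 5.24 and 5.73 at 180 min. Ptrh2 had 1.96 and 3.09, 1.02 and 2.57, 1.01 and 1.16, and 0.722 and 0.392. At 60 and 180 min neither gene's libraries overlapped those of 0 min. The log2 changes at 180 min were 1.41 ± 0.27 for Vmp1 (adjusted p = 0.00963) and -2.01 ± 0.49 for Ptrh2 (adjusted p = 0.0223), and the difference of -3.42 ± 0.51 (adjusted p = 0.00327) held whichever library was left out. The Vmp1 call did not hold without 0 min replicate 1 (adjusted p = 0.0801). The Ptrh2 call did not hold with median-ratio scaling (-1.35, adjusted p = 0.0963) or without 180 min replicate 2 (adjusted p = 0.133).

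Setdb2, a SET-domain protein linked to histone H3 lysine 9 methylation, begins 104 bases from Cab39l, a scaffold of the LKB1 kinase, on chromosome 14. Setdb2 had 0.755 and 1.18 FPKM at 0 min, 0.540 and 1.01 at 20 min, 0.386 and 0.684 at 60 min, and 5.51 and 10.1 at 180 min. Cab39l had 0.485 and 0.906, 0.389 and 0.711, 0.316 and 0.524, and 1.21 and 1.80. Both genes were highest in the 2 libraries of 180 min, with a larger step in Setdb2. The log2 change at 180 min was 2.85 ± 0.46 for Setdb2 (adjusted p = 0.00536) and 1.04 ± 0.43 for Cab39l (adjusted p = 0.107, and 0.00352 with the block), and the difference was called (-1.82 ± 0.31, adjusted p = 0.00558) whichever library was left out.

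With the block, Sowahc, an ankyrin-repeat gene 75 bases from the septin gene Sept10 on chromosome 10, also rose alone. Its FPKM was 3.40 and 0.822 at 0 min, 7.88 and 3.25 at 20 min, 11.7 and 6.79 at 60 min, and 9.27 and 4.59 at 180 min, while all Sept10 values lay between 0.437 and 0.650. Replicate 1 of Sowahc was the higher at every time, and within each replicate every LPS library was above 0 min. The difference was 1.65 at 20 min, 2.27 at 60 min and 2.17 at 180 min, with adjusted p = 0.0399, 0.00128 and 0.00101 with the block and 0.757, 0.0945 and 0.0821 without it. Slc31a1, the copper importer CTR1, rose by 1.56 ± 0.32 at 60 min (adjusted p = 0.0206) beside Fkbp15, a protein of actin and endosome dynamics, which changed by 0.05 ± 0.35 (adjusted p = 0.959).

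**Figure D3:**
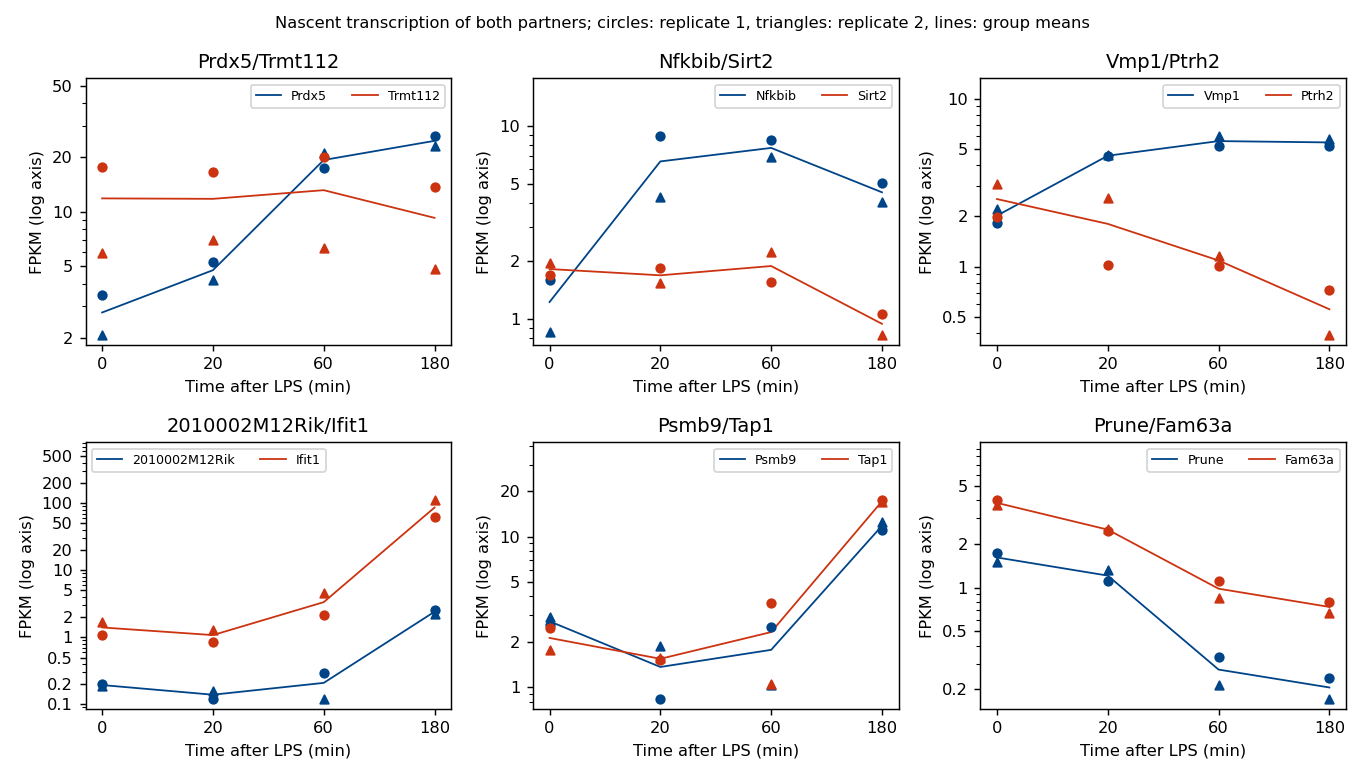
FPKM on a log axis (vertical) by time after LPS in minutes (horizontal, not to scale) for the minus-strand partner (blue) and the plus-strand partner (red) of 6 pairs, with replicate 1 as circles, replicate 2 as triangles and group means as lines. The mean of Prdx5 passes that of Trmt112 by 60 min, Nfkbib/Sirt2 and Vmp1/Ptrh2 separate after LPS, in 2010002M12Rik/Ifit1 and Psmb9/Tap1 both are highest at 180 min, and in Prune/Fam63a both decline.

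Among the joint falls on the deposited scale, Nat9/Tmem104 had the largest by the smaller of the 2 changes at 60 and 180 min. Nat9 is an N-acetyltransferase and Tmem104 a transmembrane protein, 171 bases apart on chromosome 11. Nat9 had 3.42 and 1.68 FPKM at 0 min, 1.58 and 1.07 at 20 min, 0.461 and 0.160 at 60 min, and 0.312 and 0.112 at 180 min. Tmem104 had 3.33 and 1.57 at 0 min, 2.64 and 1.53 at 20 min, 0.226 and 0.089 at 60 min, and 0.251 and 0.148 at 180 min. At 60 and 180 min all libraries of both genes lay below those of 0 min. The log2 changes at 60 min were -2.71 ± 0.55 and -3.27 ± 0.49 (adjusted p = 0.0212 and 0.00809), and at 180 min -3.08 ± 0.55 and -3.02 ± 0.49 (adjusted p = 0.00736 and 0.00537). Without 0 min replicate 1 the 60 min values rose to 0.128 and 0.0571, and without 180 min replicate 2 that of Nat9 at 180 min rose to 0.056.

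Sgsh, a lysosomal sulfatase that degrades heparan sulfate, and Slc26a11, a sulfate and anion transporter, lie 47 bases apart on the same chromosome. Sgsh had 2.40 and 0.717 FPKM at 0 min, 0.777 and 0.446 at 20 min, 0.085 and 0.007 at 60 min, and 0.053 and 0.031 at 180 min. Slc26a11 had 1.58 and 0.628 at 0 min, 1.08 and 0.450 at 20 min, 0.145 and 0.092 at 60 min, and 0.072 and 0.015 at 180 min. All 4 libraries of 60 and 180 min lay below those of 0 min in both genes. Without the 0 min libraries the genes averaged 0.233 and 0.31 FPKM, so both met the level of the rule only through the time at which they are high. At 180 min the log2 changes were -3.33 ± 0.60 and -2.97 ± 0.56 (adjusted p = 0.00738 and 0.00862), which came to 0.0535 and 0.0623 without 180 min replicate 2. Sgsh overlaps Card14 on the opposite strand over 1886 bases. Values this low sit near the pseudocount of 0.1, which understates the change.

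Prune, a phosphohydrolase, and Fam63a, a deubiquitinating enzyme, lie 859 bases apart on chromosome 3. Prune had 1.72 and 1.51 FPKM at 0 min, 1.11 and 1.31 at 20 min, 0.332 and 0.215 at 60 min, and 0.240 and 0.172 at 180 min. Fam63a had 3.98 and 3.68, 2.47 and 2.55, 1.11 and 0.856, and 0.801 and 0.674. At every time after LPS all libraries of both genes lay below both of 0 min. The log2 changes were -2.21 ± 0.30 and -1.87 ± 0.27 at 60 min (adjusted p = 0.00589 and 0.00696) and -2.49 ± 0.30 and -2.23 ± 0.27 at 180 min (adjusted p = 0.0019 and 0.00183). The calls at 180 min held whichever library was left out, and those at 60 min did not (0.0609 and 0.0662 without 0 min replicate 1).

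Zbtb25 and Zbtb1, a pair of zinc finger transcription factors 706 bases apart on chromosome 12, fell at 180 min by 2.93 ± 0.42 and 2.71 ± 0.44 on the log2 scale (adjusted p = 0.00325 and 0.00527). Zbtb25 had 2.39 and 2.01 FPKM at 0 min and 0.285 and 0.134 at 180 min, and Zbtb1 had 2.19 and 2.28 and then 0.438 and 0.136. Their calls at 180 min held with any library left out, as did those of Atp6v1a, a subunit of the vacuolar proton pump (-1.99 ± 0.35), and its partner Naa50, an N-acetyltransferase (-2.12 ± 0.33). Mrpl41, a mitochondrial ribosomal protein, and Pnpla7, a lysophospholipase, 935 bases apart on chromosome 2, changed by -2.63 ± 0.56 and -3.45 ± 0.49 at 180 min (adjusted p = 0.0134 and 0.00323). Pnpla7 had 2.31 and 1.20 FPKM at 0 min and 0.118 and 0.021 at 180 min. At 60 min Pnpla7 was called (-2.66, adjusted p = 0.0153) and Mrpl41 was called with the block alone (-1.57, adjusted p = 0.00596, against 0.115 without it). Snx5, a sorting nexin of endosomes, and Mgme1, a nuclease that maintains mitochondrial DNA, changed by -1.41 ± 0.30 and -1.78 ± 0.36 at 60 min (adjusted p = 0.0252 and 0.0203), and Snx5 overlaps the small RNA gene Snord17 on the same strand. Without 0 min replicate 1 the 60 min values were 0.174 for Snx5 and 0.104 for Pnpla7. The Snx5 call was not made with median-ratio scaling at 60 or 180 min (adjusted p = 0.0673 and 0.0736).

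The sixth pair with both lower at 60 min was Mms19/Ubtd1, an iron-sulfur assembly factor and a ubiquitin-domain protein (-1.19 ± 0.31 and -1.67 ± 0.36, adjusted p = 0.048 and 0.026). Bcl2l12 and Irf3, whose products are a BCL2-family protein and a transcription factor that induces interferon, both fell at 180 min, by 2.16 and 1.75 on the log2 scale. Acot13, a thioesterase of fatty acid metabolism, and Tdp2, a DNA repair phosphodiesterase, lie 170 bases apart on chromosome 13. Acot13 had 2.09 and 2.19 FPKM at 0 min, 0.967 and 1.25 at 20 min, 0.227 and 0.139 at 60 min, and 0.175 and 0.065 at 180 min. Tdp2 had 1.55 and 1.24, 0.815 and 0.824, 0.599 and 0.360, and 0.408 and 0.203. No library after LPS reached either 0 min library in either gene, and Acot13 fell the further. The log2 changes at 180 min were -3.39 ± 0.36 and -1.92 ± 0.37 (adjusted p = 0.00132 and 0.00912), and the difference between them was called at 60 min (1.61 ± 0.32, adjusted p = 0.0152) and at 180 min (1.47 ± 0.32, adjusted p = 0.0131). Without 0 min replicate 2 these differences had adjusted p = 0.109 and 0.0983, and without 0 min replicate 1 the change of Tdp2 had 0.0636.

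In a further set the plus or the minus partner fell alone. Rnf166, a ubiquitin ligase, begins 79 bases from Ctu2, which acts in tRNA thiolation. Rnf166 had 4.02 and 2.37 FPKM at 0 min, 1.85 and 1.08 at 20 min, 1.80 and 0.571 at 60 min, and 0.907 and 0.190 at 180 min, against 1.02 and 0.487, 0.929 and 0.268, 2.02 and 0.491, and 1.27 and 0.307 for Ctu2. All 6 LPS libraries of Rnf166 lay below both of 0 min, while the LPS libraries of Ctu2 lay on either side of its 0 min values and overlapped them at each time. The difference of Ctu2 minus Rnf166 was 1.96 ± 0.37 at 60 min (adjusted p = 0.0129) and 2.44 ± 0.37 at 180 min (adjusted p = 0.00352, held with any library left out). The change of Rnf166 at 180 min was -2.56 ± 0.73 (adjusted p = 0.036, and 0.202 without 180 min replicate 2). Ctu2 overlaps Piezo1 on the opposite strand over 1394 bases.

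Other differences had 1 partner that was not called. Tmem60, a transmembrane protein, changed by -1.88 ± 0.45 at 180 min (adjusted p = 0.0199) beside 0.65 ± 0.28 for Phtf2 (adjusted p = 0.12, and 0.0474 with the block), and the difference of -2.53 ± 0.43 held with any library left out. Nudt6, a Nudix hydrolase, changed by -2.44 ± 0.51 at 180 min (adjusted p = 0.0124) beside 0.03 ± 0.44 for the ATPase gene Spata5 (adjusted p = 0.957). Mcee, an enzyme of propionate breakdown, changed by -2.14 ± 0.50 at 60 min (adjusted p = 0.0335) beside 0.38 ± 0.33 for Mphosph10, a nucleolar protein of ribosome synthesis (adjusted p = 0.531). The ubiquitin ligase gene Lrsam1 changed by -1.81 ± 0.37 at 60 min (adjusted p = 0.0219), whereas Rpl12, a ribosomal protein gene, changed by 0.44 ± 0.56 (adjusted p = 0.681). Pnkd and Aamp differed by -2.38 ± 0.62 at 60 min (adjusted p = 0.038) although neither change was called alone without the block (with it Pnkd had adjusted p = 0.00719), and the Pnkd libraries of 60 min, 0.779 and 0.037 FPKM, lay far apart. Gart, an enzyme of purine synthesis, changed by -1.94 ± 0.36 at 180 min (adjusted p = 0.00793), and Son, a splicing cofactor whose 8 values lay between 5.18 and 7.87 FPKM, by -0.17 ± 0.28 (adjusted p = 0.65), which with median-ratio scaling was 0.56. The difference at 180 min was 2.48 for Spata5 minus Nudt6 and 1.76 for Son minus Gart (adjusted p = 0.0355 and 0.0149). At 60 min it was -2.51 for Mcee minus Mphosph10 and 2.26 for Rpl12 minus Lrsam1 (adjusted p = 0.0206 and 0.0148). Among these calls without the block, only the Phtf2/Tmem60 difference held whichever library was left out.

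With the block, 7 pairs had opposite calls at 180 min. Besides Vmp1/Ptrh2 these were Ppip5k2/Gin1, Slc25a32/Dcaf13, Drap1/AI837181, Phtf2/Tmem60, Nfkbib/Sirt2 and Adam9/Tm2d2. Ppip5k2, an inositol pyrophosphate kinase, had 0.800 and 0.896 FPKM at 0 min and 1.29 and 1.56 at 180 min, while Gin1, derived from a retrotransposon integrase, went from 0.914 and 1.10 to 0.436 and 0.353. Neither gene's groups overlapped. Their difference of -1.84 ± 0.33 was called without the block as well (adjusted p = 0.00683) and held with any library left out, whereas the change of Gin1 (-1.16 ± 0.32, adjusted p = 0.0316) had 0.156 without 0 min replicate 2 and 0.296 with median-ratio scaling. At 60 min the 1 opposite pair with the block was Cct5/Fam173b, a chaperonin subunit (0.72) and a mitochondrial methyltransferase (-0.91).

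Histone pairs had some of the highest levels. Hist2h2ac and Hist2h2be, 277 bases apart on chromosome 3, were both called lower at 60 min (-1.42 ± 0.34 and -2.01 ± 0.43, adjusted p = 0.0376 and 0.0252) and at 180 min (-1.27 ± 0.34 and -3.33 ± 0.43, adjusted p = 0.0305 and 0.00241). Hist2h2be had 12.5 and 12.8 FPKM at 0 min and 1.57 and 0.864 at 180 min, and Hist2h2ac 4.79 and 4.77 and then 1.62 and 2.26. With median-ratio scaling Hist2h2ac was not called (-1.10 at 60 min and -0.55 at 180 min, adjusted p = 0.204 and 0.47). Hist1h2an and Hist1h2bp, an H2A and an H2B gene, both fell at 180 min (-3.01 ± 0.83 and -2.62 ± 0.46, adjusted p = 0.0329 and 0.00683), the former with 0.173 and 0 FPKM there and not called without 180 min replicate 2 (adjusted p = 0.199). Hist1h2bh and Hist1h2ae were lower at 180 min (-3.56 ± 0.76 and -2.18 ± 0.63, adjusted p = 0.0136 and 0.0378), whereas their partners Hist1h3f and Hist1h2bg changed by -0.15 ± 0.84 and 0.10 ± 0.60. The differences between partners were not called without the block (adjusted p = 0.0897 and 0.142, and 0.00494 and 0.00558 with it). Those 2 calls were lost without 180 min replicate 2 (adjusted p = 0.1 and 0.201).

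Of the named pairs, the nearest had no called gene without the block on the deposited scale. In the farthest, both partners were called lower at 180 min. Capza1, an actin capping subunit, and St7l start 1 base apart, and Capza1 stayed between 2.77 and 4.33 FPKM in all 8 libraries while St7l went from 1.28 and 1.40 at 0 min to 0.829 and 0.669 at 180 min (-0.77 ± 0.27, adjusted p = 0.0654, and 0.0171 with the block). Kars, lysyl-tRNA synthetase, and Terf2ip, a telomere protein, are 5 bases apart, and neither was called at any time with or without the block, although Kars at 180 min was called with median-ratio scaling (1.15, adjusted p = 0.0246, against 0.47 and 0.222). At the far end, Dnase1l1 and Taz, a nuclease and the cardiolipin-remodelling enzyme tafazzin, both fell at 180 min, by 2.78 ± 0.43 and 1.30 ± 0.39 (adjusted p = 0.00435 and 0.0413), with a called difference of 1.47 ± 0.34 (adjusted p = 0.0173). Taz was not called with median-ratio scaling (-0.60, adjusted p = 0.349) or without 180 min replicate 2 (0.199). Mcm7, a subunit of the replicative helicase, fell at 60 and 180 min (-1.68 ± 0.43 and -2.84 ± 0.43, adjusted p = 0.0447 and 0.00404, the former 0.24 without 0 min replicate 1), and its partner Ap4m1, a subunit of the AP-4 coat, changed by -1.38 ± 0.44 at 180 min (adjusted p = 0.0526, and 0.00196 with the block). The Hsp60 and Hsp10 chaperonin genes Hspd1 and Hspe1, 216 bases apart, were not called at any time without the block (at 180 min: -1.19 ± 0.62 and -0.68 ± 0.70), and with it both were lower at 180 min (adjusted p = 0.0142 and 0.0303), although Hspe1 was at 0.02 with median-ratio scaling. Of the highest pairs, Cln3 and Apobr changed by 1.07 ± 0.43 and 0.71 ± 0.28 at 60 min (adjusted p = 0.153 and 0.148, and 0.00553 and 0.0207 with the block).

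By function, 41 of the 222 fitted genes of the mitochondrial list lay in divergent pairs, as did 46 of 254 for RNA processing and transcription machinery, 21 of 169 for ribosome and translation, 16 of 102 for proteasome and chaperones, 15 of 170 for vesicle traffic, 7 of 55 for DNA repair and replication and 7 of 170 for LPS and interferon response. The counts without the block that follow are read beside the 8.93% of all genes called higher and 23.4% called lower at 180 min. Those with the block are read beside 14.2% and 51.6% of all genes. At that time 0 mitochondrial members were called higher and 5 lower (4 and 27 of all 222, and 1 and 26 of the members with the block), including Atp5c1 (-1.06), Coq9 (-1.17), Mrpl18 (-2.03) and Mrpl40 (-2.09), with a median change of -0.81 against -0.69 over all genes. Of the RNA processing members 0 were higher and 8 lower (8 and 37 of all 254, and 0 and 26 with the block), among them Polr2i (-2.34), Ddx31 (-1.88) and Cpsf3 (-1.61), with a median of -0.77. Of the DNA repair members Mcm7, Xpc (-2.24) and Orc6 (-1.89) were called lower (24 of all 55, and all 7 members with the block), with a median of -1.65. Of the translation members 4 were called lower and 0 higher (10 and 4 of all 169, and 7 and 1 with the block), with a median of -0.49. Of the vesicle members 3 were called lower and 0 higher (41 and 11 of all 170, and 9 and 0 with the block), with a median of -0.84. Of the proteasome and chaperone members Psme2 and Psmb9 were called higher and 0 lower (11 and 9 of all 102, and 3 and 4 with the block), with a median of -0.28. Of the 7 LPS and interferon members Ifit1, Nfkbib, Psmb9 and Tap1 were called higher and Irf3 lower (109 and 20 of all 170, and the same counts of members with the block), with a median of 1.86 beside 2.31 over the 170 genes of that list. Partners belonged to the same list in Hspd1/Hspe1, Mrpl47/Ndufb5, Mrpl46/Mrps11, Sdhd/Timm8b, Gtf3c4/Ddx31, Hars/Hars2, Dnajc2/Psmc2 and Psmb9/Tap1.

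Across the 362 pairs the log2 changes of the partners had a Pearson r of 0.26 at 20 min, 0.39 at 60 min and 0.52 at 180 min (Spearman rho 0.22, 0.31 and 0.40). These describe pairs that share libraries and 0 min values, and leaving out 0 min replicate 1 or 2 moved the 20 min r to 0.16 or 0.38. Taken in replicate 1 alone r was 0.37, 0.46 and 0.55, and in replicate 2 alone 0.16, 0.33 and 0.47. With the minus-strand change from replicate 1 and the plus-strand change from replicate 2, which share no library, it was 0.23, 0.36 and 0.49. The median absolute difference between partners was 0.27, 0.52 and 0.61. By distance, r at 20 min was 0.44 for the 108 pairs up to 100 bases apart, 0.14 for 159 pairs at 101 to 300 bases and 0.15 for 95 pairs at 301 to 1000 bases. At 60 min it was 0.33, 0.43 and 0.38, and at 180 min 0.47, 0.57 and 0.49. A called difference was found at 180 min in 12, 19 and 16 of them.

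Other neighbours set these values in context, again as a description. The 231 tandem pairs up to 1000 bases apart, which run in the same direction, had r of 0.61, 0.69 and 0.69, and 177 convergent pairs at that distance, which end toward each other, had 0.26, 0.15 and 0.18. Divergent neighbours more than 1000 and up to 10000 bases apart (206 pairs) had 0.35, 0.39 and 0.50, close to the values at 0 to 1000 bases, and the 1335 divergent neighbours farther apart had 0.19, 0.17 and 0.21. The 802 tandem pairs at the middle distance had 0.31, 0.38 and 0.53, also close to those of the near divergent pairs. For the 389 convergent pairs there, r was 0.16, 0.087 and 0.18. A difference between partners was called at 180 min in 13.4% of near tandem pairs, 27.1% of near convergent pairs, 22.3% of divergent pairs at the middle distance and 34.3% of those farther apart, beside 13% of the near divergent pairs. The median absolute difference at 180 min was 0.56, 0.82, 0.77 and 1.05 in the same order, beside 0.61. No test of the difference between these classes was made, because pairs are not replicates of a condition.

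**Figure D4:**
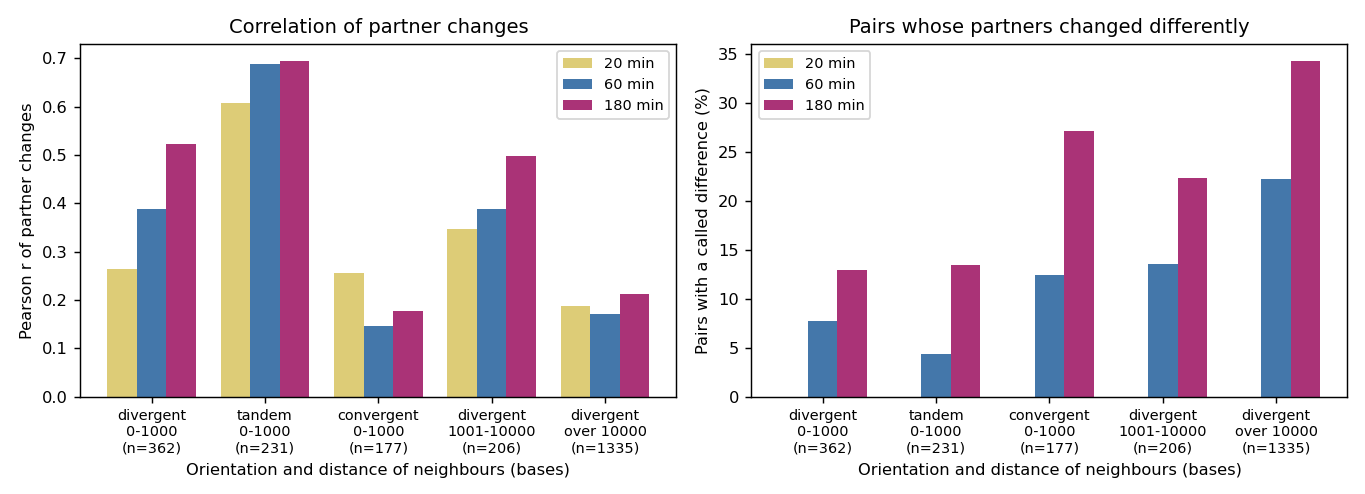
Pearson r of the log2 changes of neighbouring genes (left) and percent of pairs with a called difference (right), by orientation and distance in bases, at 20, 60 and 180 min against 0 min, with the number of pairs under each class. Near divergent pairs had r of 0.52 at 180 min, between near tandem pairs at 0.69 and near convergent pairs at 0.18.

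RefSeq promoters, which span 250 bases before and 50 after a start, were found for 618 of the 722 member genes (85.6%), in 765 promoters. Their median G+C content was 63% with 25 CpG dinucleotides, against 60.7% and 21 in 7766 promoters of the fitted genes outside the pairs. CCGGAAG, an ETS motif, was in 32.5% of member promoters and 19.3% of the others. TGACGTCA was in 6.41% and 3.10%, CCAAT in 39.2% and 36.8%, and GGGCGG in 65% and 63.6%. TATAAA was in 4.97% against 7.40%, GCATGCGC in 3.92% against 5.78%, and TGANTCA in 3.66% against 5.15%. GGGNNNTTC was in 12.4% against 15.4%, GAAANNGAA in 7.32% against 7.53%, and TTCNNNGAA in 6.41% against 6.49%. Both strands were searched, motif matches may overlap each other, and the windows of close partners overlap, so 1 match can count for both partners. In the 16 promoters of the 10 genes called higher together at 180 min, GAAANNGAA was in 31.25%, TGACGTCA and CCAAT each in 25%, and GGGCGG in 62.5%. TATAAA and CCGGAAG were each in 18.75% of them, TGANTCA and TTCNNNGAA each in 6.25%, and GCATGCGC and GGGNNNTTC in 0%. These few promoters come from 5 pairs with overlapping windows. In 55 promoters of genes called lower together at 180 min, CCGGAAG and GCATGCGC were each in 9.09%, TGACGTCA in 7.27% and GAAANNGAA in 5.46%. In 95 promoters of pairs with a called difference at 180 min, CCGGAAG was in 30.5%, GAAANNGAA in 7.37%, GCATGCGC in 3.16% and TGACGTCA in 0%. Differences between these sets were not tested. Of 187 intervals between start sites that could be read in full, 91 held GGGCGG, 61 CCAAT, 35 CCGGAAG, 14 TGACGTCA, 7 GAAANNGAA and 4 TATAAA.

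**Figure D5:**
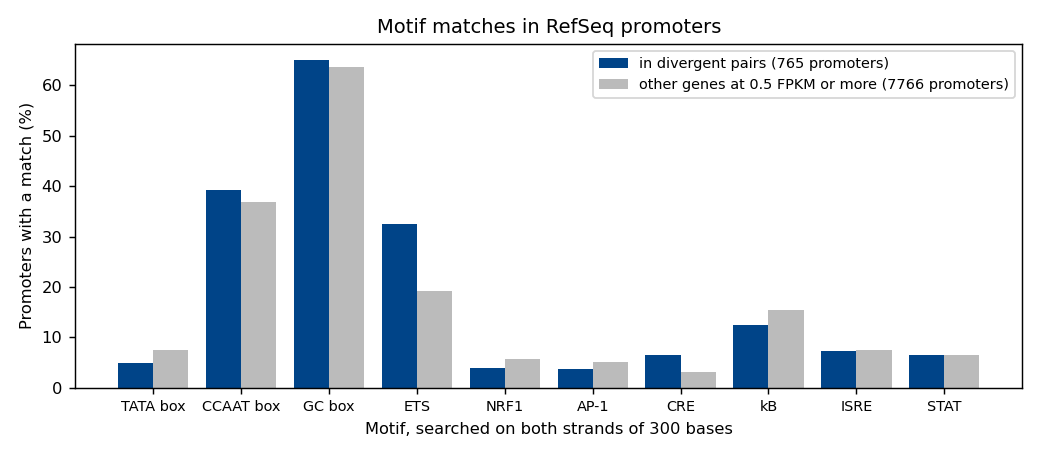
Percent of RefSeq promoters of 300 bases (vertical) with a match to each of 10 motifs (horizontal), for 765 promoters of genes in divergent pairs and 7766 of other fitted genes. The ETS motif was in 32.5% of the former and 19.3% of the latter, and the TATA box in 4.97% and 7.40%.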

How the data were processed

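GRO-seq of mouse macrophages was analysed from the deposited table of FPKM values, which the authors computed per gene. Per the submitters' processing notes the tools were CASAVA 1.7, Bowtie2 2.0.5 and HOMER 4.6 and 4.7, with mm9. Strand handling is not given in the sources used here. Another 8 FPKM columns were not used. Values were taken as log2(FPKM + 0.1) for the 8343 genes that averaged 0.5 FPKM or more, and fitted over all 8 libraries with limma 3.58.1 (R 4.3.3; moderated test with variance trend, Benjamini-Hochberg, threshold 0.05). The partner difference was fitted the same way over 7509 neighbouring pairs. Steps in the FPKM values gave whole reads for 100% of the low values used, within 0.1 read, and hence the depths. Same-numbered libraries deviated together (r = 0.595 to 0.882 over genes), and values with the replicate block stand beside counts they move. The labels give the replicate number without saying what it stands for. Replicates 1 and 2 also differ in depth, so a pairing of cultures and an effect of depth cannot be told apart. Fits were tested on simulated data. Promoter motifs were counted with Python 3.11.15, numpy 2.4.6 and pandas 2.3.3, and figures drawn with matplotlib 3.10.9.

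The members and gene lists were chosen with earlier results of these data known. Pairs named were those with the largest joint, opposite or unequal changes, the highest, nearest and farthest, and a short list including Tap1, Psmb9, Hspd1, Hspe1, Gart and Son, leaving out clone names. Atp6v1a/Naa50, Mms19/Ubtd1, Fkbp15/Slc31a1, Ppip5k2/Gin1, Bcl2l12/Irf3 and the pairs so described in the text were named after their values were seen. Comparisons with 0 min share the 0 min libraries. Alternatives were other pseudocounts, filters, scalings, distance limits, the block, and each library left out.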

Additional observations from a re-analysis of the deposited data

How the results depend on the processing

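Of 306 single changes and differences of named genes and pairs, 82 had another sign under at least 1 alternative (26 with median-ratio scaling, 37 with quantile normalization), and 0 of those were called without the block on the deposited scale. Counts of calls moved, and the cause was not tested. With the replicate block, calls were 13, 221 and 462 member genes at 20, 60 and 180 min (without it 0, 54 and 184), 45 and 152 pairs called together (7 and 34), 1 and 7 opposite pairs (0 and 1), and 4, 99 and 139 partner differences (0, 28 and 47). With the block and median-ratio scaling, chosen after seeing the data, they were 8, 231 and 307 genes, 38 and 70 pairs together, 9 and 14 opposite, and 3, 99 and 141 differences. Leaving out 1 library gave 4 to 57 genes at 60 min and 61 to 236 at 180 min, 0 to 7 and 7 to 47 pairs together, 0 to 1 opposite pairs at 180 min, 1 to 23 and 12 to 47 differences, and r of 0.16 to 0.38 at 20 min, 0.34 to 0.39 at 60 min and 0.41 to 0.58 at 180 min. At 20 min the leave-one-out counts of calls were 0 to 0. A filter of 1 FPKM, which tests fewer genes, gave 21 and 66 genes, 2 and 10 pairs together, 9 and 20 differences, and 79 pairs with the same peak time (201). Without a filter 3 and 19 pairs were called together and 0 were opposite at 180 min. At 180 min median-ratio scaling gave 121 genes and 18 pairs together, and quantile normalization 104 and 16. At 60 min a pseudocount of 1 gave 82 genes and a distance limit of 500 bases 4 pairs together. Limma-voom on recovered reads, chosen after seeing the data, gave 11 pairs together at 60 min and 2 opposite at 180 min. The depth of replicate 2 limits short and low genes.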

Other observations

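Of the 722 members, 429 (59.4%) had their highest group mean at 0 min, 34 at 20 min, 183 at 60 min and 76 at 180 min, beside 53% of all fitted genes at 0 min. Both partners had their highest mean at the same time in 201 of 362 pairs (55.5%), with 146 pairs at 0 min, 35 at 60 min and 18 at 180 min. With median-ratio scaling 153 pairs shared that time. On the deposited scale the share was 58.4% of near tandem pairs and 42.4% of near convergent pairs. It was 57.8% of divergent pairs at the middle distance and 42.2% of those farther apart. The order of the partners' levels was the reverse of that at 0 min in both replicates of 9 pairs at 20 min, 20 at 60 min and 35 at 180 min.

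Of the 47 pairs with a called difference at 180 min, 1 had both partners called higher, 4 had both called lower and 1, Vmp1/Ptrh2, had opposite calls. Prr3/Gnl1, named after its values were seen, shows a called difference without a called partner. Gnl1, which encodes a GTP-binding protein, had 1.11 and 0.70 FPKM at 0 min and 2.86 and 2.14 at 180 min, while Prr3 had 2.47 and 2.27 and then 1.75 and 0.971. The difference was 2.20 ± 0.34 on the log2 scale (adjusted p = 0.00398) and held with any library left out.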
